A study of Mus musculus with 11 samples.

Results

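The proteasome genes of mouse bone-marrow macrophages were followed over 3 states of activation. The members were all genes whose symbol is Psma, Psmb, Psmc, Psmd or Psme followed only by digits, together with Pomp, and 43 of the 18193 genes measured met this rule. Where a gene had several probe sets with 1 symbol, the brightest on average over the 11 arrays stands for it. Psme2 has a probe set that it shares with Psme2b, so it was not counted and is given separately.

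Bone marrow of Rag1-/- C57BL/6 mice, 7 weeks old and without mature B and T cells, was grown for 7 days, and cells carrying the macrophage surface protein of the gene Adgre1 were sorted. M0 macrophages received no cytokines (5 arrays), M1 macrophages received IFN-g and, in the last 24 h, LPS (3 arrays), and M2a macrophages received IL-4 and IL-13 (3 arrays). All 3 groups carry the Rag1 deletion. Whether replicates are separate mice is not in the labels, and the spread behind each p-value is that between these arrays, possibly technical.

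The proteasome is the main protease of the cytosol and nucleus and degrades proteins tagged with ubiquitin. Its 20S core is built of rings of alpha subunits (Psma) and beta subunits (Psmb), and the beta subunits Psmb5, Psmb6 and Psmb7 carry the cutting sites. The 19S cap, with ATPases (Psmc) and other subunits (Psmd), binds and unfolds the tagged protein. Interferon-gamma is known to induce Psmb8, Psmb9 and Psmb10, which take the places of Psmb5, Psmb6 and Psmb7 in the immunoproteasome, and the PA28 activator of Psme1 and Psme2. The immunoproteasome makes peptides that fit MHC class I, and macrophages and other immune cells hold some of it without stimulation.

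Psmb8 and Psmb9 lie in the MHC region beside the peptide transporter genes, and their upstream sequences are shown with that of Psmb5, the constitutive counterpart of Psmb8. The sequences are from RefSeq on GRCm38.p6, run 5′ to 3′ on the strand of the gene, and end at the base before its start. Capitals mark the interferon-gamma activated site TTCNNNGAA in Psmb8 and the antioxidant-type element TGACNNNGC in Psmb5, of the kind bound by the factor Nfe2l1. The Psmb9 sequence, chr17:34187331-34187555 on the minus strand, is the whole stretch of 225 bases between the starts of Psmb9 and Tap1, which are read away from each other. The Psmb8 sequence is chr17:34197945-34198194 on the plus strand and that of Psmb5 is chr14:54617996-54618245 on the minus strand.
Psmb8: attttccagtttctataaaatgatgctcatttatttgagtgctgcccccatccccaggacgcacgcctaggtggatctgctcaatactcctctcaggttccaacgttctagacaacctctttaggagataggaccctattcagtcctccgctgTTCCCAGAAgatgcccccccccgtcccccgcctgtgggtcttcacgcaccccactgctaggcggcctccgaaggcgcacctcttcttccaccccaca
Psmb9: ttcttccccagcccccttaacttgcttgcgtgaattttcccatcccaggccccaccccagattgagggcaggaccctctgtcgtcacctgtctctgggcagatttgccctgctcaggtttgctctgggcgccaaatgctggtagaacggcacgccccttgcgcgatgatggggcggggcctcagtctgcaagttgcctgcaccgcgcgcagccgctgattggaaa
Psmb5: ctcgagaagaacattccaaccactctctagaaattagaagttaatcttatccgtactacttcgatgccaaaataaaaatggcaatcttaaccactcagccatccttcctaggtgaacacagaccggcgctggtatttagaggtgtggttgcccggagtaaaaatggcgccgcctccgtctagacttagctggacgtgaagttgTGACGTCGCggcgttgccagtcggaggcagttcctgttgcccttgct

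In the 250 bases before the start, TTCNNNGAA, read on both strands, was found in 1 of the 36 members with a promoter in the RefSeq table, Psmb8, and in 8.13% of all 27018 genes there. The interferon response element (ISRE) was found in Psmb3, Psmd4 and Psmd9 and in 3.46% of all genes. TGACNNNGC was found in 5 of the 36 members, Psmb5, Psmb6, Psmc6, Psmd9 and Psmd12, and in 11.5% of all genes. The kappa B motif was found in none of the 36 members and in 1.13% of all genes, and CCAAT in 14 members and in 37.5% of all genes. Each motif was counted on its own, whether or not its letters overlapped another motif, and a match describes these letters only.

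Adgre1, the marker of the sort, averaged 11.19 (M0), 12.41 (M1) and 11.74 (M2a) on the log2 scale, against a median gene of 5.96 in M0. The mean of 9 neutrophil-lineage markers ran from 11.73 to 13.13 in M0, from 7.61 to 7.77 in M1 and from 5.24 to 5.40 in M2a, and that of 5 measured cell cycle genes from 9.01 to 9.67, from 6.51 to 6.57 and from 6.64 to 7.01. All 9 neutrophil markers fell in M2a and 8 in M1, and all 6 markers of eosinophils, basophils and mast cells fell in both. The mean of 8 macrophage markers ran from 10.63 to 11.37 in M0, from 11.86 to 11.87 in M1 and from 9.99 to 10.33 in M2a. Means of dendritic, B, T and NK cell markers stayed under the median gene in all arrays. Their part in the results was not tested, and in bulk samples fewer cells of a type and less RNA per cell cannot be told apart. In the deposited values the mean of M0 arrays 1 to 3 equals that of M0 arrays 4 and 5 to within 8.3e-05 for each probe set. The 5 M0 arrays are thus not 5 independent measurements, and array 4 mirrors array 5 around the M0 mean. The SDs, SEs and p-values given here still count them as 5 and may be too favourable. The members had a median SD of 0.24 among M0 arrays, 0.04 among M1 arrays and 0.07 among M2a arrays.

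M1, which received IFN-g and LPS, was set against M0 for these genes. Of the 43 members 37 were higher in M1, and none was lower, in the limma fit with Benjamini-Hochberg adjustment over all genes at 0.05. Of all 18193 genes, 22.1% were called higher and 17.6% lower, and 29.7% were higher among the 9096 genes above the median gene, where 41 of the members lie. All 43 differences were above 0, so none was lower at an unadjusted p under 0.05 either, and they ran from 0.14 to 3.54 on the log2 scale. The median difference was 0.75 over the members and 0.06 over all genes. The arrays of 36 members did not overlap, M1 being above M0, as they did not in 22.7% of all genes. A rise of at least 2-fold was called in 11 members and in 6.27% of all genes.

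The catalytic subunits of the immunoproteasome rose in M1 by differences from 1.93 to 2.22. Psmb8, the counterpart of the chymotrypsin-like subunit, lay at 10.65, 10.51, 10.37, 10.33 and 10.68 in M0 arrays 1 to 5, at 12.46, 12.47 and 12.38 in M1, and at 10.04, 10.09 and 9.99 in M2a. All M1 arrays were above and all M2a arrays below the M0 arrays. The rise in M1 was 1.93 ± 0.10 (SE), or 3.80-fold, with a limma adjusted p of 5.5e-08.

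Psmb9, the counterpart of the caspase-like subunit, lay at 9.26, 9.02, 8.98, 8.86 and 9.32 in M0, at 11.32, 11.30 and 11.30 in M1, and at 8.40, 8.46 and 8.28 in M2a. It had the same order of groups, with no overlap. Its rise in M1 was 2.22 ± 0.11 (SE), or 4.65-fold (limma adjusted p = 4.8e-08).

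Psmb10, the counterpart of the trypsin-like subunit, lay at 9.64, 9.70, 9.58, 9.43 and 9.85 in M0, at 11.87, 11.79 and 11.76 in M1, and at 10.69, 10.66 and 10.51 in M2a. Here both cytokine states were above every M0 array. The rise in M1 was 2.17 ± 0.10 (SE), or 4.49-fold (limma adjusted p = 2.6e-08).

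Psme1, a subunit of the PA28 ring that opens the 20S core, was the steadiest member in M0, at 10.64, 10.67, 10.60, 10.65 and 10.62. It lay at 11.68, 11.71 and 11.62 in M1 and at 10.59, 10.63 and 10.49 in M2a, where it overlapped M0. The rise in M1 was 1.04 ± 0.08 (SE), or 2.05-fold (limma adjusted p = 9.3e-07). The rises of these 4 genes in M1 passed the test in all 26 alternative settings, with the smallest difference of Psme1 at 0.88 and of Psmb10 at 1.86.

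The probe set shared by Psme2, the partner of Psme1 in PA28, and Psme2b cannot tell these genes apart. It read 10.38, 10.72, 10.56, 10.40 and 10.71 in M0, 12.60, 12.58 and 12.57 in M1, and 11.05, 11.08 and 11.03 in M2a. In a fit that allowed this probe set, the rise was 2.03 ± 0.10 (SE) in M1 (limma adjusted p = 3.6e-08) and 0.50 ± 0.10 in M2a (limma adjusted p = 0.0025). In M2a it was thus above all M0 arrays, while Psme1 was not.

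**Figure D1:**
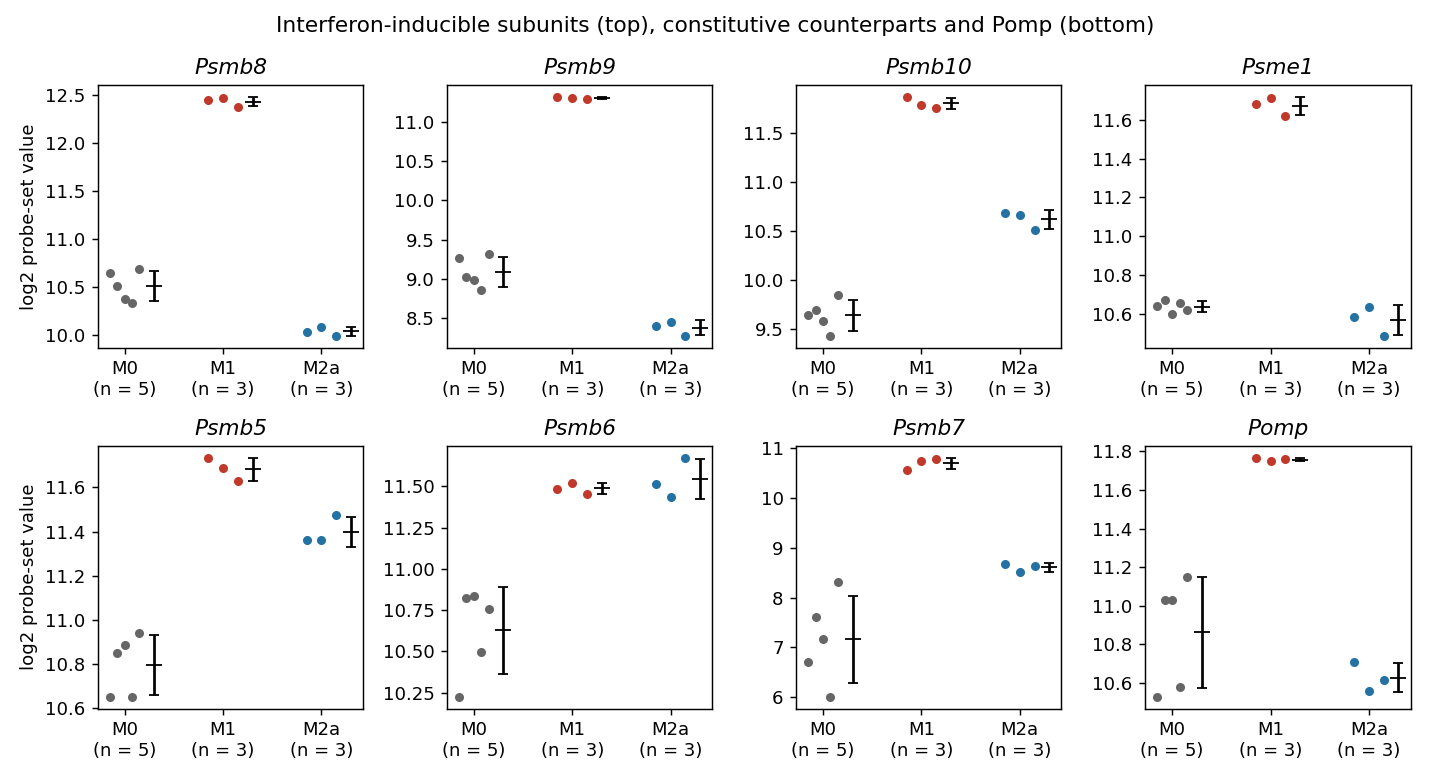
Log2 probe-set value (vertical axis, scaled per gene) of 8 genes in each array, with M0 (5 arrays) in grey, M1 (3) in red and M2a (3) in blue; points are arrays and the bars beside them are means ± SD. M1 lies above M0 in all 8 panels, Psmb8 and Psmb9 in M2a lie below M0, and Psmb7 in M0 spreads from 6.00 to 8.32.

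Most constitutive subunits rose too in M1, and all but Psmb7 had smaller differences than Psmb8, Psmb9 and Psmb10. Of 31 constitutive subunits of the 20S core and 19S cap, 26 were higher and none was lower in M1, with a median difference of 0.71. By structure these were all 7 alpha ring subunits (median 0.83), 5 of 7 beta ring subunits (0.86), all 6 ATPases (0.58) and 8 of 11 other 19S subunits (0.56). Those without a call were Psmb1, Psmb3, Psmd6, Psmd8 and Psmd13, with differences from 0.14 to 0.42. Their other probe sets above the median gene differed by 0.71 for Psmb3, 0.02 for Psmd6 and 0.22 for Psmd13. Psmb3 passed in 7 of the 26 alternative settings, among them the mean of its probe sets. Members had 46 other probe sets, of which 20 were above the median gene; 17 of these belonged to genes called in M1, and 15 had the same sign, the exceptions being those of Psma3 and Psmd11.

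Among alpha subunits, which form the outer rings and gate of the core, Psma5 rose by 1.14, Psma1 by 1.05 and Psma4 by 1.01, the 3 that reached 2-fold. Psma5 lay at 10.32, 10.67, 10.65, 10.37 and 10.73 in M0 and at 11.60, 11.72 and 11.75 in M1, a rise of 2.21-fold with a limma adjusted p of 1e-05, without overlap. The beta subunit Psmb2, which has no cutting site, rose by 1.02.

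The constitutive counterparts of the immunosubunits did not fall in M1. Psmb5 lay at 10.65, 10.85, 10.89, 10.65 and 10.94 in M0, at 11.73, 11.69 and 11.63 in M1, and at 11.36, 11.36 and 11.47 in M2a. Every M1 and M2a array was above every M0 array. Psmb5 rose by 0.89 ± 0.09 (SE; limma adjusted p = 1.9e-05) in M1.

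Psmb6 lay at 10.23, 10.83, 10.83, 10.50 and 10.76 in M0, at 11.49, 11.52 and 11.46 in M1, and at 11.52, 11.44 and 11.67 in M2a. The values of M1 and M2a overlapped, and both were above M0. Psmb6 rose by 0.86 ± 0.14 (SE; limma adjusted p = 0.00047) in M1.

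Psmb7, measured by 1 probe set, had the largest difference of any member and by far the widest spread. It lay at 6.71, 7.60, 7.17, 6.00 and 8.32 in M0, at 10.57, 10.75 and 10.78 in M1, and at 8.68, 8.51 and 8.63 in M2a. The groups did not overlap, but the M0 arrays alone spanned 2.31 on the log2 scale. The rise in M1 was 3.54 ± 0.39 (SE), or 11.6-fold (limma adjusted p = 2.4e-05). With the actin control, a measure of RNA quality, as a covariate it was 2.20, and with the spike-in hybridization controls in that role 1.36, and both passed.

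In the 19S cap, the ATPases Psmc6 and Psmc5, which belong to the ring that unfolds substrates, rose by 0.96 and 0.94. Psmd14, the enzyme that removes ubiquitin chains as proteins enter, rose by 1.03, and Psmd1, a large scaffold subunit, by 0.93. Psmd14 lay between 10.02 and 10.99 in M0 and between 11.51 and 11.57 in M1, without overlap.

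Assembly factors and other activators were higher as well. Psmd10 (gankyrin), a chaperone of the 19S base, lay at 7.73, 8.42, 8.37, 7.52 and 8.83 in M0, at 9.61, 9.63 and 9.69 in M1, and at 8.38, 8.30 and 8.49 in M2a. M1 was above all other arrays, and the rise was 1.47 ± 0.24 (SE; limma adjusted p = 0.00059). The other 19S chaperones, Psmd9 and Psmd5, rose by 0.77 and 0.68.

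Pomp, the maturation factor needed to finish new 20S cores and known to serve immunoproteasome assembly, lay at 10.53, 11.03, 11.03, 10.58 and 11.15 in M0, at 11.77, 11.75 and 11.76 in M1, and at 10.71, 10.56 and 10.62 in M2a. M1 stood above all other arrays, and M2a lay within the range of M0. The rise in M1 was 0.89 ± 0.14 (SE; limma adjusted p = 0.00046). Among activators other than PA28 alpha and beta, the nuclear Psme3 rose by 0.63 with overlapping arrays and Psme4 (PA200) by 0.46. The call of Psme3 was kept in 11 of the 26 alternative settings and was lost without any of the M1 or M2a arrays or M0 arrays 1, 2 or 3.

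The tissue-restricted 20S subunits were low in all arrays. Psma8, known from testis, ran from 4.43 to 5.47 and Psmb11, of the thymus, from 3.56 to 4.25, under the median gene. Psmb11 rose by 0.37 in M1 and by 0.45 in M2a, and Psma8 by 0.61 in M2a.

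**Figure D2:**
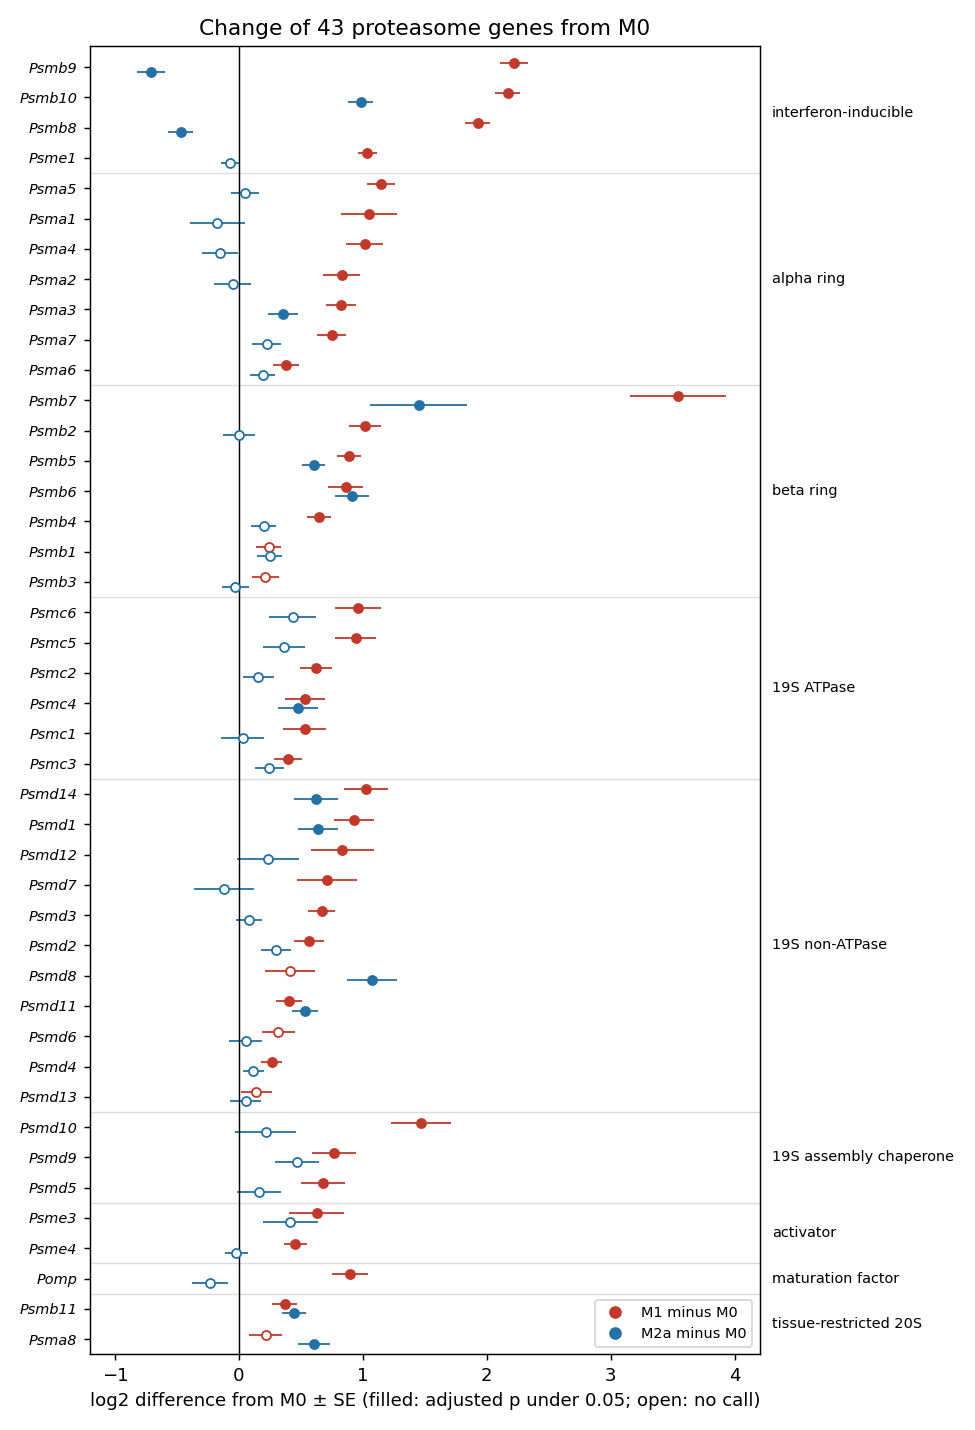
Difference from M0 on the log2 scale (horizontal axis, ± SE of the limma fit) for all 43 genes, grouped by role, in M1 (red) and M2a (blue); filled points have an adjusted p under 0.05. All M1 points lie above 0 and 37 are filled, while in M2a 14 are filled, of which Psmb8 and Psmb9 lie below 0.

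The M0 arrays differed among themselves in the same members. M0 array 5 was the highest of the 5 in 31 of the 43 members, M0 array 4 the lowest in 24 and M0 array 1 the lowest in 16. The same counts over all genes were not made. The median SD among M0 arrays was 0.24 for the members and 0.24 for all genes. Since array 4 mirrors array 5, their low and high values are not separate observations. Relative to the M0 mean, the mean of the constitutive subunits was -0.23, 0.15, 0.07, -0.30 and 0.30 in M0 arrays 1 to 5, 0.77, 0.76 and 0.76 in M1, and 0.29, 0.26 and 0.33 in M2a. M1 was above all M0 arrays, whereas M2a was level with M0 array 5.

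The actin control, whose 5′ minus 3′ difference falls when RNA is degraded, was -0.63, -0.58, -0.63, -1.27 and 0.05 in M0 arrays 1 to 5, 0.18, 0.13 and 0.14 in M1, and -0.55, -0.63 and -0.53 in M2a. Array 4 had the lowest and array 5 the highest M0 value of both measures, and as mirrored arrays they count as 1 observation here. M0 arrays 1 to 3 and the M2a arrays had actin values from -0.63 to -0.53. Their constitutive means were -0.23, 0.15 and 0.07 in these M0 arrays and 0.26 to 0.33 in M2a. The part of RNA quality in these differences was not tested. With the actin difference as a covariate 25 of the 43 members were higher in M1 and none lower, and the constitutive median was 0.40. Of all genes 39.9% were called either way with this covariate. Spike-in controls set the M0 arrays apart from both cytokine groups. The hybridization controls averaged 10.61 to 11.70 in M0, 9.64 to 9.75 in M1 and 9.79 to 9.96 in M2a, and the poly-A controls 8.99 to 10.15, 5.58 to 5.67 and 6.13 to 6.32. With the hybridization controls added to the fit, 47.6% of all genes were called either way. There 10 members were higher and 5 lower in M1, and the constitutive median was 0.06. The 5 lower were Psmc1, Psmd7, Psmd8, Psmd13 and Psme3, and Psmb6, Pomp, Psma1, Psma4, Psmb2, Psmd10 and Psmd14 had no call. The 4 inducible genes were called higher under both covariates. The part of the poly-A difference in these results was not tested. Neither control overlapped between M0 and the cytokine groups. Whatever set these controls apart therefore cannot be told apart from the cytokines in the comparisons with M0.

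**Figure D3:**
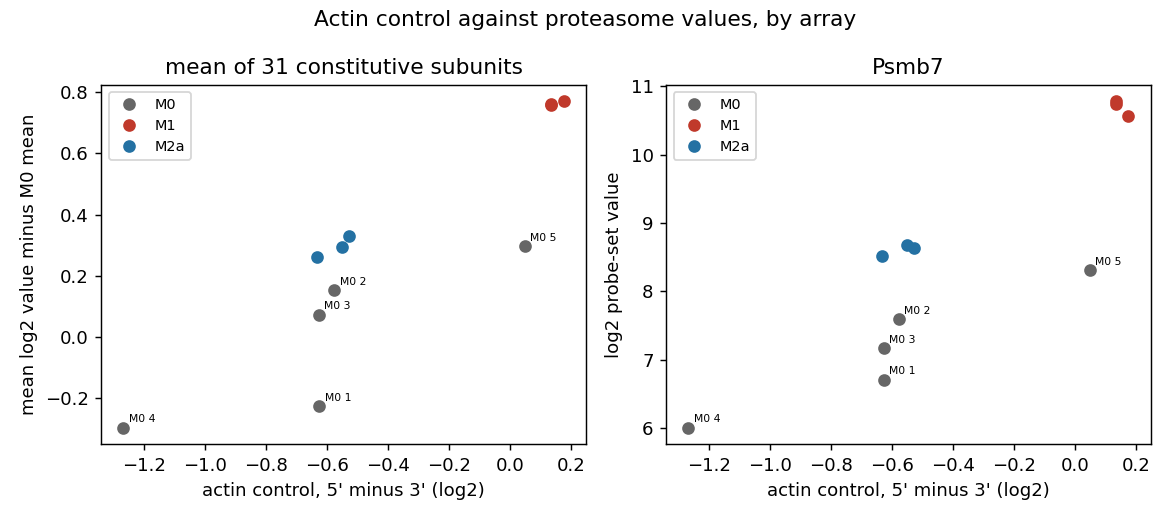
Actin control 5′ minus 3′ difference (horizontal axis, log2) against the mean of the 31 constitutive subunits relative to the M0 mean (left) and the log2 value of Psmb7 (right), 1 point per array, M0 arrays named. M0 array 4, at -1.27, is lowest and M0 array 5, at 0.05, is highest among M0 arrays on both vertical axes, and the M1 arrays lie above all M0 arrays. M0 arrays 4 and 5 mirror each other around the M0 mean.

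The inducible genes were then set against the constitutive subunits array by array. The mean of Psmb8, Psmb9, Psmb10 and Psme1 minus the constitutive mean, relative to M0, was 0.30, -0.15, -0.16, 0.15 and -0.15 in M0, 1.09, 1.09 and 1.04 in M1, and -0.33, -0.27 and -0.48 in M2a. This difference was above M0 in all M1 arrays and below M0 in all M2a arrays, with no overlap. In M2a the inducible mean alone was -0.04, -0.01 and -0.15 and overlapped M0, which ran from -0.15 to 0.15. The M2a constitutive mean was 0.26 to 0.33, level with M0 array 5 at 0.30. The difference averaged 1.07 ± 0.03 (SD, n = 3) in M1 and -0.36 ± 0.11 (SD, n = 3) in M2a, against an SD of 0.21 in M0 (n = 5). Under the hybridization covariate the M2a value was 0.13.

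By pairs, the change of Psmb8 exceeded that of Psmb5 by 1.04 in M1 and fell short of it in M2a, where the difference was -1.07. For Psmb9 and Psmb6 these values were 1.36 and -1.62. The pair Psmb10 and Psmb7 went the other way in M1, at -1.37, and stood at -0.47 in M2a, since Psmb7 rose more than Psmb10 in both states. Its values in M0 ran from -0.95 to 0.95, so the M2a value lay within the M0 spread. These are differences of changes, not of levels, and carry no test.

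M2a, which received IL-4 and IL-13, was compared with M0 in the same way. Of the 43 members 12 were higher and 2 lower in limma, against 18.6% higher and 13.3% lower over all genes. The 2 lower members were Psmb8 and Psmb9. The median difference was 0.22, against 0.07 over all genes, and 15 members were above M0 without overlap, as were 21.3% of all genes. Among genes above the median gene 24.5% were higher. A called rise of at least 2-fold was seen in Psmb7 and Psmd8, and in 4.41% of all genes.

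Psmb9 fell by 0.71 on the log2 scale (SE 0.11, 1.64-fold, limma adjusted p = 0.00057), a call that held in all 26 alternative settings. Psmb8 fell by 0.47 (SE 0.10, limma adjusted p = 0.0039), a call lost when its 2 probe sets were averaged (-0.08). The dimmer probe set of Psmb8 differed by 2.23 in M1 and by 0.31, in the opposite direction, in M2a. Psmb10 instead rose by 0.98 ± 0.10 (SE), or 1.97-fold (limma adjusted p = 2.6e-05), in all 26 settings as well. Psme1 differed by -0.07 ± 0.08 (SE; limma adjusted p = 0.53). The 4 inducible genes thus had no common direction in M2a.

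Of the 31 constitutive subunits 9 were higher in M2a and none was lower. All 3 catalytic subunits were among them: Psmb7 rose by 1.45, Psmb6 by 0.91 (limma adjusted p = 0.00042) and Psmb5 by 0.60 (limma adjusted p = 0.00053). Psmb7 lost its call without M2a array 1 (adjusted p = 0.054) or M2a array 3 (0.05) and with M0 arrays 4 and 5 only (0.10). Under the hybridization covariate Psmb7 turned to -0.51, and Psmb6 (0.35) and Psmb5 (0.26) had no call. Psma3 was the called alpha subunit (0.35) and Psmc4 the called ATPase (0.48), and they lost their calls in 14 and 16 of the 26 settings.

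Psmd8, a subunit of the 19S lid, had a larger rise in M2a than in M1. It lay at 10.20, 10.79, 10.81, 10.11 and 11.09 in M0, at 11.04, 11.01 and 10.99 in M1, and at 11.60, 11.59 and 11.81 in M2a. M1 lay within the range of M0, and M2a was above all other arrays. The rise in M2a was 1.07 ± 0.20 (SE; limma adjusted p = 0.0018), and the difference in M1 was 0.42 ± 0.20 (limma adjusted p = 0.12). Psmd1 rose by 0.64 and Psmd14 by 0.62 in M2a, the latter without a call when any of the M2a arrays was left out (limma adjusted p = 0.052, 0.056 and 0.073) or with M0 arrays 4 and 5 only (0.12). Under the hybridization covariate the differences of Psmd8 (0.03), Psmd1 (-0.12) and Psmd14 (-0.24) in M2a had no call.

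Without M0 arrays 1 and 4, which were low in most members, 10 members were higher and 6 lower in M2a, and the constitutive median was 0.10. With the actin covariate 19 were higher and 2 lower, and with the hybridization covariate 2 were higher and 20 lower. Of all genes 45.3%, 46.1% and 49.5% were called either way in these 3 settings, against 18.6% higher and 13.3% lower in the main fit. The constitutive median was 0.19 with the actin covariate and -0.24 with the hybridization covariate. Psmb10 was called higher and Psmb8 and Psmb9 lower in each of these 3 settings.

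**Figure D4:**
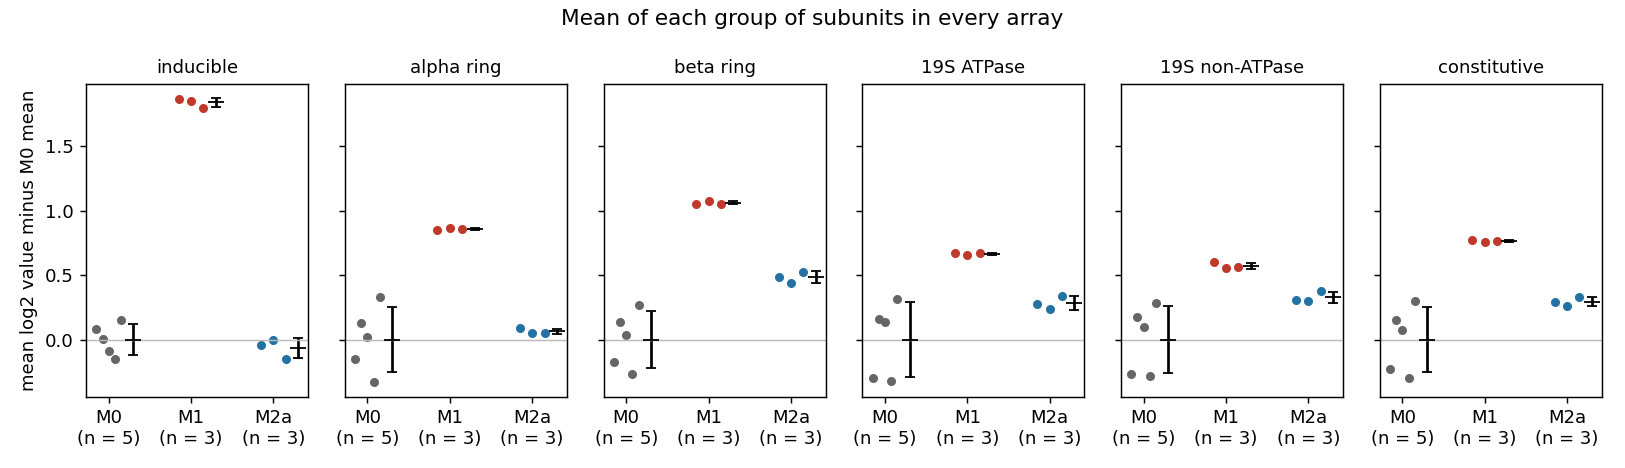
Mean log2 value of each group of subunits relative to its M0 mean (vertical axis) in every array, M0 in grey, M1 in red, M2a in blue; bars are means ± SD. The inducible set averages 1.84 in M1 and -0.07 in M2a, and the constitutive set 0.76 and 0.29, where its M0 arrays run from -0.30 to 0.30.

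M1 and M2a were also compared directly, which tests whether the states differ. The main fit takes the spread of a gene from all 3 groups, so the wider M0 spread enters these p-values and calls. With only these 2 groups fitted 33 members were higher and 2 lower in M1, and 56.9% of all genes were called either way. In the main fit 20 of the 43 members were higher in M1 and 1, Psmd8, was lower, against 13.7% and 15.6% of all genes. Among genes above the median gene 19.9% were higher. The difference was called and at least 2-fold in 11 members, against 5.51% of all genes, and 35 members lay higher in M1 without overlap, as did 30.7% of all genes. The 4 inducible genes were all higher in M1: Psmb9 by 2.93 ± 0.13 (SE; limma adjusted p = 1.1e-08), Psmb8 by 2.40, Psmb10 by 1.19 and Psme1 by 1.10. Of the alpha ring 6 of 7 subunits were higher, Psma1 by 1.22, Psma4 by 1.16 and Psma5 by 1.09.

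Beta subunits split in this comparison. Psmb7 was higher in M1 by 2.09 and Psmb2 by 1.02, whereas Psmb6 differed by -0.05 ± 0.16 (SE; limma adjusted p = 0.83) and Psmb5 by 0.29 ± 0.11 (limma adjusted p = 0.064). Psmb5 passed in 6 of 23 alternative settings, among them that with only the 2 groups fitted. Of the 19S subunits Psmc5 (0.58), Psmc2 (0.47), Psmd7 (0.83) and Psmd3 (0.59) were higher in M1. Psmc5, Psmc2 and Psmd7 lost this call when any of the M1 or M2a arrays was left out, and in 9, 8 and 9 of 23 settings in all. Psmd8 was lower in M1 by a difference of -0.66 ± 0.22 (SE; limma adjusted p = 0.047). Its call was lost when any of the M1 or M2a arrays, or M0 array 2 or 3, was left out (adjusted p from 0.056 to 0.14). Pomp was higher in M1 by 1.13 and Psmd10 by 1.25, the latter without a call under the actin covariate (0.52, adjusted p = 0.062). Psme4 was higher in M1 by 0.48.

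The genes around the proteasome were read from lists of partners and of the class I peptide pathway. Of 20 measured assembly factors and partners, 6 rose and 2 fell in M1 (median 0.25), or 30% and 10%, against 22.1% and 17.6% of all genes. Psmg2, a chaperone of the alpha ring, rose by 1.20 with M0 array 5 among the M1 arrays, and Psmf1 (PI31), which binds the 20S core, by 1.14. Sem1, a small subunit of the 19S lid outside the naming rule, fell in both states, by 0.41 in M1 and by 0.60 in M2a. Ube3a, a ubiquitin ligase, fell as well, by 0.49 in M1 and by 0.58 in M2a.

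In M2a 5 of the 20 partners rose and 3 fell, or 25% and 15%, near the 18.6% and 13.3% of all genes. Akirin2, which brings proteasomes into the nucleus, rose by 0.92. Nfe2l1, the transcription factor that drives proteasome subunit genes when activity is short, lay at 7.91, 8.64, 8.49, 8.52 and 8.18 in M0, at 8.40, 8.38 and 8.37 in M1, and at 8.94, 9.17 and 9.25 in M2a. It rose in M2a by 0.77 ± 0.15 (SE; limma adjusted p = 0.0027) and differed by 0.04 ± 0.15 (adjusted p = 0.88) in M1. Ngly1, an enzyme needed to activate Nfe2l1 protein, fell by 0.75 in M2a.

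Of 15 measured class I peptide pathway genes, 10 rose and 2 fell in M1 (66.7% and 13.3%, against 22.1% and 17.6% of all genes). In M2a 3 rose and 5 fell (20% and 33.3%, against 18.6% and 13.3%). Tap1, which shares its upstream stretch with Psmb9, lay at 7.85, 7.83, 7.58, 7.72 and 7.79 in M0, at 10.95, 10.94 and 11.03 in M1, and at 7.44, 7.41 and 7.06 in M2a. Its groups stood in the same order as those of Psmb9, with a rise of 3.22 in M1 and a fall of 0.45 in M2a. Nlrc5, which activates class I genes, rose by 3.38 in M1. The peptidases Npepps and Blmh, which trim peptides in the cytosol, fell in M1, by 1.10 and by 0.82. In M2a Lap3 rose by 1.18 and Erap1 by 0.85, while the chaperones Calr and Canx fell by 0.76 and by 0.60.

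Of 13 measured genes of interferon signalling and ubiquitin-like conjugation, 10 rose and 1 fell in M1 (76.9% and 7.69%, against 22.1% and 17.6% of all genes). In M2a 2 rose and 4 fell (15.4% and 30.8%, against 18.6% and 13.3%). Irf1, a factor known to drive Psmb8, Psmb9 and Psmb10, lay between 9.10 and 9.16 in M0, between 12.02 and 12.16 in M1 and between 8.54 and 8.83 in M2a. It rose by 2.93 in M1 and fell by 0.41 in M2a, without overlap. Ubd, a ubiquitin-like tag that sends proteins to the proteasome, rose by 6.83 and Usp18 by 4.10 in M1. Usp18 and Ube2l6 rose in M2a too, by 1.15 and 0.77, whereas Irf8 fell by 0.44. The receptor Ifngr1 fell in both states, by 0.70 in M1 and by 0.73 in M2a.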

How the data were processed

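Total RNA of sorted bone-marrow macrophages was hybridized to Affymetrix mouse arrays. Log2 values of 45101 probe sets on 11 arrays were deposited by the authors, and Partek is named in the submitters' processing notes. How background, probe summary and normalization were handled is not given in the sources used here, and the number of arrays limits precision. A probe table gave 34945 probe sets 1 symbol, updated by Entrez identifier for 34741, and 932 with several symbols were left out. The 64 control probe sets were not tested.

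Differences were tested by limma (version 3.58.1, R 4.3.3) with group means over all 11 arrays, lmFit and then eBayes, and adjusted by Benjamini-Hochberg over 18193 genes, threshold 0.05, with no filter on low values. "Rose", "fell" and "called" mean an adjusted p under 0.05. The test was checked on simulated data with independent arrays and the same spread of a gene in all groups. The tie among the M0 arrays and their wider spread were not simulated. Members and lists were chosen with earlier results of these data known. Genes were named by rule: the inducible genes, their counterparts, Pomp, the 2 largest called rises and falls per role or list, called members with 2-fold changes, and Tap1, Irf1 and Nfe2l1 (a further gene of the rule is not reported here); Psmb1, Psmb3, Psmd6, Psmd13 and the remaining examples were named after their values were seen. The constitutive set leaves out Psmd5, Psmd9 and Psmd10, which are chaperones, and Psma8 and Psmb11. The alternatives were other normalizations, probe set choices, filters, eBayes settings, M0 arrays, weights, a replicate block, control covariates and each array left out.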

Additional observations from a re-analysis of the deposited data

How the results depend on the processing

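The 4 inducible genes were higher in M1 under all alternatives. With the hybridization controls as a covariate, 10 members were higher and 5 lower in M1 against M0, 2 higher and 20 lower in M2a against M0, and 2 lower in M1 against M2a; the inducible minus constitutive difference was 1.63 in M1 and 0.13, reversed, in M2a. There 5 members turned sign and passed in M1, namely Psmc1 (-0.47), Psmd7 (-0.63), Psmd8 (-0.75), Psmd13 (-0.49) and Psme3 (-0.61), and 12 in M2a, among them Psma5 (-0.39), Psmc1 (-0.87), Psmd10 (-1.07) and Psmd12 (-1.01). Other members turned sign under this covariate without passing, among them Psma1 (-0.10) and Psmc6 (-0.05) in M1. In M2a they included Psmb7 (-0.51), Psmd14 (-0.24) and Psmd1 (-0.12). With the actin covariate Psme3 turned to -0.48 in M1 against M2a. The cause was not tested. With the actin covariate 19 members were higher in M2a, where 46.1% of all genes were called either way. In M1 against M2a 13 were higher and 2 lower, against 38.5% of all genes called either way, and the difference was 1.61. Members lower in M2a numbered 1 with probe sets averaged and 6 without M0 arrays 1 and 4. Of all genes 33.7% and 45.3% were called either way there. Against M2a, M1 had 33 higher with only the 2 groups fitted and 35 with array weights, and 2 lower in each. Of all genes 56.9% and 62.3% were called either way in these 2 settings. After median-centring 0 members were lower in M1 against M2a, and 2 with probe sets averaged, where 28.7% and 29.3% of all genes were called either way. Leaving out each array gave 29 to 40 higher in M1 and 8 to 18 in M2a against M0, with 2 lower in M2a, and 16 to 24 higher and 0 to 2 lower in M1 against M2a. Between samples with the same replicate number, correlations of deviations ran from -0.04 to 0.25, and 2 of 9 were over 0.1. With so few arrays, and tied M0 arrays, these values cannot decide whether the samples are paired. With a replicate block 38 members were higher in M1, 14 in M2a, and 25 in M1 against M2a. Of all genes 44.1%, 35.7% and 38.3% were called either way with this block. Alternatives chosen after seeing the data, the constitutive set without Psmb7 and a wider set, gave 1.17 and 1.08 in M1. Low probe sets limit what Psma8 and Psmb11 can show.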
